A study of Mus musculus with 8 samples.

Results

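The nuclear-encoded genes of oxidative phosphorylation were followed in cultured mouse spermatogonial stem cells. Members were the genes measured by a probe set with 1 gene symbol only, where that symbol begins with Nduf, Uqcr, Atp5 or Cox4 to Cox8 or is Sdha, Sdhb, Sdhc or Sdhd. Processed pseudogenes were dropped, and each gene was represented by its brightest probe set. This gave 89 of the 19938 genes on the array: 41 of complex I, 4 of complex II, 8 of complex III, 19 of complex IV and 17 of complex V. Of these, 81 encode subunits, 7 are assembly factors of complex I (Ndufaf1 to Ndufaf7) and 1, Ndufa4l2, is a relative of the complex IV subunit Ndufa4. The members were chosen by name and not by any measured value, but with earlier results of these data known. Cox7c and Ndufb4 are not analysed here, since their probe sets also carry the symbol of a second gene. Cyc1, the cytochrome c1 of complex III, falls outside these names, is not a member and is read from a list below.

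RNA was taken from 8 samples of cultured cells, each hybridised to 1 array. Spermatogonial stem cells renew themselves in the testis and give rise to sperm, and they can be kept dividing in culture. The young short group (n = 3) held cells of 8-day-old donors after 7 to 10 weeks of culture. The young long group (n = 3) held cells of donors of that age after 14 to 18 months of culture. The transplant long group (n = 2) held cells that had been passed serially from testis to testis by transplantation, with a labelled age of 1500 days, likewise after 14 to 18 months of culture. It is not stated whether that age counts a donor animal or the time over transplants. The labelled age and serial transplantation go together in that group and cannot be told apart. No array held serially transplanted cells in short culture. The labels name no strain, and they do not say whether arrays of a group came from separate donors or cultures. The p-values therefore speak of how much these arrays scatter, and that scatter may be technical.

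Oxidative phosphorylation takes place in the inner mitochondrial membrane. Complexes I and II pass electrons from NADH and succinate to ubiquinone, complex III passes them on to cytochrome c, and complex IV hands them to oxygen. Complexes I, III and IV pump protons as they do so, and complex V, the ATP synthase, lets protons flow back through a rotating ring of c subunits to make ATP. Stem cells in culture, spermatogonial stem cells among them, are known to rely heavily on glycolysis, and the mitochondria of germ cells change in form and activity as spermatogenesis proceeds. A few catalytic subunits are encoded by the mitochondrial genome; all others, including every member here, are nuclear genes, many of them with promoters that hold sites for the factors NRF1, the ETS protein GABP, or YY1.

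Promoters of members were taken from RefSeq on assembly GRCm38.p6, as 250 bases before and 50 after a gene's start, and 73 of the 89 members had an entry. Both strands were searched for the letters of NRF1 (GCGCA, any base, GCGC), of ETS proteins (CCGGAAG) and of YY1 (AAGATGGC); the ETS and YY1 letters can overlap at AAG. The NRF1 letters were present in 18 of the 73 promoters (24.7%) against 5.2% of the promoters of 27025 genes, the ETS letters in 18 (24.7%) against 9.9%, and the YY1 letters in 10 (13.7%) against 3.2%. The stretches below are shown because they belong to members whose signal rose in long culture. They include a c subunit gene and a complex I gene with the NRF1 letters, in capitals, and a complex IV gene with none of these motifs. Each is the 250 bases before the start, on the strand of the gene.

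Atp5g2, chr15:102671048-102671297, minus strand, NRF1 letters at positions -42 to -33 from the start:
Atp5g2: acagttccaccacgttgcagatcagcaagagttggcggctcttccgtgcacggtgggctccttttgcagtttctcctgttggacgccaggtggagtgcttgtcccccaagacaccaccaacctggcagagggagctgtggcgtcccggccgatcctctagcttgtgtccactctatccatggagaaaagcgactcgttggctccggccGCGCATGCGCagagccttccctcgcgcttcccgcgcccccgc

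Ndufs5, chr4:123718187-123718436, minus strand, NRF1 letters at positions -98 to -89:
Ndufs5: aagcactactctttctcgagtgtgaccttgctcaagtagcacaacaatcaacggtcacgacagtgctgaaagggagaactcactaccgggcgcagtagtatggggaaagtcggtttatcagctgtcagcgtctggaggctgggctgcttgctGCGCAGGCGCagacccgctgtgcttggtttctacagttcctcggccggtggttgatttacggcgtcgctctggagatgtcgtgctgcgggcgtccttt

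Cox7a1, chr7:30183921-30184170, plus strand, with no match:
Cox7a1: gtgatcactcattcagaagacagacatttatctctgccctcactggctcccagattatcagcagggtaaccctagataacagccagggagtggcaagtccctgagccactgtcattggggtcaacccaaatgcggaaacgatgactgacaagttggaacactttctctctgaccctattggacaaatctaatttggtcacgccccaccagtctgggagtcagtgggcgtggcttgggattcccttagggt

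Among the members that rose, described below, 9 had a promoter entry: the NRF1 letters were found in 3 (Atp5g2, Ndufs5 and, after the start at positions 24 to 33, Ndufa6), the ETS letters in 1 (Ndufb7, positions -20 to -14) and the YY1 letters in none of the 9. Of the 64 other members with an entry, 15 held the NRF1 letters, 17 the ETS letters and 10 the YY1 letters. A match is a match of letters and shows no binding.

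Values are log2 RMA signals, so that a difference of 1 is a doubling. Array medians lay between 6.90 and 6.98. Replicate arrays correlated at 0.9944 to 0.9968 in long culture of young donors and at 0.995 in the transplant long group, whereas young short replicate 2 stood apart, at 0.9906 and 0.9904 with its replicates, which correlated at 0.996. The median signal over all tested probe sets was 6.94. All 14 markers of undifferentiated spermatogonia and germ cells exceeded it in their mean over the 8 arrays. Their mean level ran from 9.68 to 10.13 in young short, 9.84 to 9.97 in young long and 9.94 to 9.99 in transplant long arrays. Among them Lhx1, at a mean of 7.98 in young short arrays, lay under 6.94 in young long (6.68) and transplant long arrays (6.59). Of 15 fibroblast markers, 14 exceeded the median signal too. Their mean level was 10.05 to 10.55 in young short, 9.46 to 9.49 in young long and 8.96 to 9.52 in transplant long arrays. Of the Sertoli cell markers, 4 of 7 did, and of the Leydig cell and macrophage markers 1 of 4 and 1 of 6. With bulk RNA, fewer cells of a type and less RNA per cell cannot be told apart.

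Most of the chain was well expressed: 83 of the 89 members had a mean above this median signal. The 6 at or below it were Cox4i2, Cox6a2, Cox8b and Ndufa4l2, which are tissue- or condition-specific forms, and the assembly factors Ndufaf5 and Ndufaf6. Signals of such probe sets can be background.

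Long culture of young donor cells was compared with short culture of cells from donors of the same age. Markers of other cells and of dividing cells also moved between these groups, as given below. The change over the chain was small, upward in most members and uneven. In all, 10 of 89 members rose (11.2%) and 0 fell, at an adjusted p under 0.05 by limma with Benjamini-Hochberg adjustment over 28944 probe sets. They were Ndufb9, Ndufab1, Ndufa6, Ndufs5, Ndufc2, Ndufa7 and Ndufa2 of complex I, Cox7a1 and Cox6c of complex IV and Atp5g2 of complex V. Over all probe sets 11.3% passed in either direction, 5.43% higher and 5.83% lower. The share of members that changed at all was thus near that of all probe sets, and every member that passed had risen. Of the 14472 probe sets above the median signal, 1335 rose (9.22%) and 1082 fell. Of the 83 members above it, 10 rose (12.0%) and 0 fell.

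The median change of the 89 members was 0.14, beside -0.04 over all probe sets and 0.05 over those above the median signal. A positive difference was found in 66 members (74.2%), in 43.2% of all probe sets and in 56.6% of those above the median signal. All 3 young long arrays lay above all 3 young short arrays for 29 members (32.6%, beside 15.1% of all probe sets), and below them for 4 members (beside 16.3%): Atp5a1, Atp5b, Atp5h and Uqcrb. At an unadjusted p under 0.05 by limma there were 31 of 89 members, and 7538 of 28944 probe sets (26.0%).

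The comparison of the transplant long with the young short group, which uses the same 3 young short arrays, gave a like number. Here too 10 of 89 members rose (11.2%) and 0 fell by limma with Benjamini-Hochberg adjustment: Ndufb9, Ndufb7, Ndufs5, Ndufa6 and Ndufa2 of complex I, Cox7a1, Cox4i1, Cox6c and Cox6b2 of complex IV, and Atp5g2 of complex V. Over all probe sets 8.73% passed, 3.58% higher and 5.15% lower. Of the 14472 above the median signal, 881 rose (6.09%) and 1035 fell. The members' median change was 0.15, beside -0.00 over all probe sets and 0.04 over the brighter ones. In 66 members (74.2%) the difference was positive, beside 49.3% of all probe sets and 56.9% of the brighter ones. Both transplant long arrays lay above all young short arrays for 30 members (33.7%, beside 18.9%) and below them for 8 (beside 18.4%): Atp5a1, Atp5b, Atp5c1, Atp5h, Cox8a, Ndufaf3, Ndufb11 and Uqcrb. Unadjusted limma p-values under 0.05 were found for 19 of 89 members and 6327 of 28944 probe sets (21.9%).

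**Figure D1:**
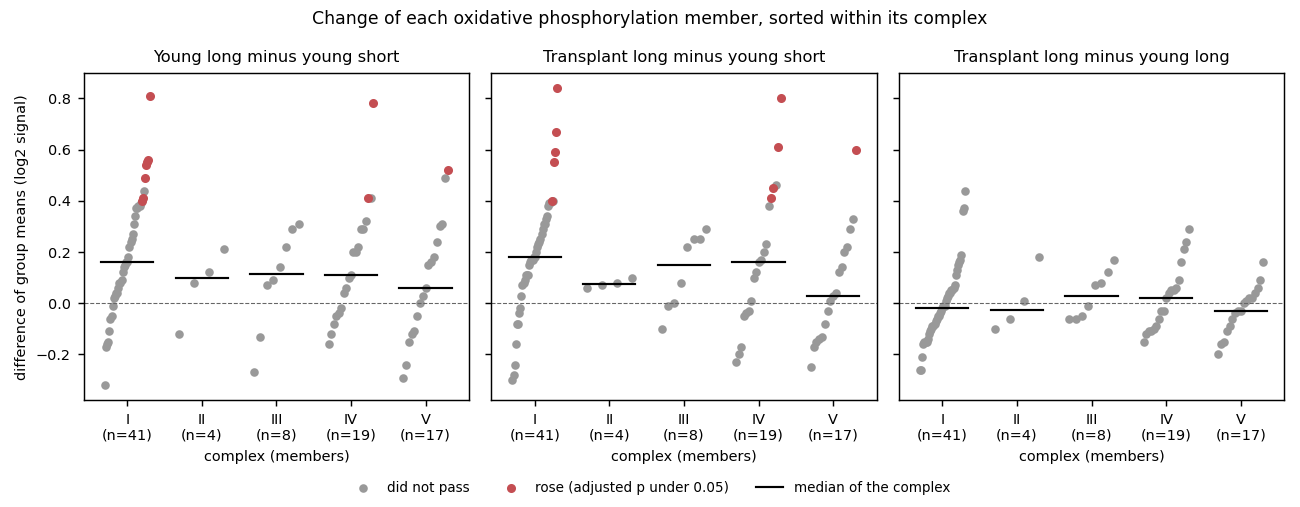
Each point is 1 of the 89 members; the vertical axis is the difference of group means in log2 signal, the horizontal axis the complex with its number of members, and the black bar the median of the complex. In both comparisons with young short culture the red points, members with an adjusted p under 0.05, are all above 0 and number 10 each, while in the third panel no member passed.

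Both counts depend on single arrays. Without young long replicate 1 or 3, 2 members passed in the first comparison, and without young short replicate 1, 5 did. Without transplant long replicate 2, 0 members passed in the other comparison (66 probe sets in the whole table did) and the members' median change was 0.05, and without young short replicate 1, 6 passed. Without young short replicate 2, the array that stood apart, 10 and 9 members passed and the members' medians were 0.20 in both comparisons. That transplant array was above replicate 1 of its group for 81 of 89 members (91%, beside 54.9% of all probe sets and 60.8% of the brighter ones), by a median of 0.20, and its fibroblast markers deviated from their means by a median of -0.86, beside -0.23 in replicate 1. What part this has in the members' rise was not tested.

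Of the 41 complex I members 7 rose in young long culture (17.1%) and 5 in transplant long culture (12.2%), beside 11.2% of all 89 members in each. Over all probe sets 5.43% and 3.58% rose, and of those above the median signal 9.22% and 6.09%. Complex I had 28 measured accessory subunits, which surround the catalytic core and are needed for its assembly and stability. Of these, 7 rose between young short and young long culture (25%) and 5 between young short and transplant long (17.9%). None of the 6 measured core subunits of complex I, which carry the flavin and iron-sulfur clusters, passed in either. The median change over the 34 subunits was 0.20 and 0.22.

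Ndufb9, a small subunit of the membrane arm with an LYR motif that binds the mitochondrial acyl carrier protein, showed the largest rise of any member. Its signals were 9.64, 9.66 and 9.78 on the young short arrays, 10.54, 10.41 and 10.56 on the young long arrays and 10.44 and 10.63 on the transplant long arrays. Every long-culture array lay well above every short-culture array. The difference was 0.81 ± 0.10 (SE; 1.75-fold; adjusted p = 0.00163, limma) in young long and 0.84 ± 0.11 (1.79-fold; adjusted p = 0.00316) in transplant long culture.

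The acyl carrier protein itself, Ndufab1, is a subunit of both arms and also serves fatty acid and lipoic acid synthesis. It read 9.15, 9.16 and 8.99 in young short, 9.81, 9.50 and 9.66 in young long and 9.38 and 9.63 in transplant long arrays. All long-culture arrays were above the short-culture arrays, and the young long arrays by 0.56 ± 0.12 (adjusted p = 0.0128, limma). For transplant long arrays the difference of 0.40 ± 0.13 did not pass (adjusted p = 0.0796, limma). A second Ndufab1 probe set gave 0.57 and 0.42.

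Ndufa6, the other LYR subunit of complex I that binds the acyl carrier protein, sits on the matrix arm. Signals were 8.45, 8.81 and 8.27 in young short, 9.11, 9.06 and 9.02 in young long, and 8.93 and 9.18 in transplant long arrays. Young short replicate 2 was the highest of its group but still below every long-culture array. The rise was 0.55 ± 0.14 in young long (adjusted p = 0.0252, limma) and 0.55 ± 0.15 in transplant long culture (adjusted p = 0.0481). The latter passed in 6 of 17 alternative analyses, as did that of Ndufa2. The young long call for Ndufa6 was kept in 11 of 17.

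Ndufs5 and Ndufb7 are both cysteine-rich subunits on the face of the membrane arm that looks to the intermembrane space. Ndufs5, whose promoter with the NRF1 letters is shown above, read 8.88, 8.70 and 8.71, then 9.44, 9.13 and 9.35, then 9.17 and 9.54 in young short, young long and transplant long arrays. Long-culture arrays were all higher, by 0.54 ± 0.12 (adjusted p = 0.0195, limma) and 0.59 ± 0.14 (adjusted p = 0.0242). Ndufb7 read 9.29, 9.40 and 9.25 in young short, 9.52, 9.71 and 9.65 in young long and 9.85 and 10.12 in transplant long arrays. The 3 groups did not overlap. Its difference passed only for transplant long culture, 0.67 ± 0.12 (1.60-fold; adjusted p = 0.00769, limma), and not for young long culture, 0.31 ± 0.11 (adjusted p = 0.0863).

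Ndufc2, a small membrane-arm subunit, read 10.55, 10.67 and 10.58 in young short, 11.20, 10.97 and 11.09 in young long and 10.70 and 11.26 in transplant long arrays. Both transplant long arrays were above the young short arrays, but replicate 1 by only a little. The difference was 0.49 ± 0.14 in young long (adjusted p = 0.0427, limma), and it did not pass in transplant long culture, 0.38 ± 0.15 (adjusted p = 0.169). The young long call for Ndufc2 was kept in 8 of 17 alternative analyses.

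Ndufa2 and Ndufa7 belong to the matrix arm. Ndufa2, a subunit with a thioredoxin-like fold, had nearly equal signals within the young groups, 9.29, 9.31 and 9.30 in short and 9.68, 9.71 and 9.70 in long culture, and 9.56 and 9.84 in the transplant long arrays. It rose by 0.40 ± 0.10 (adjusted p = 0.0266, limma) and 0.40 ± 0.11 (adjusted p = 0.0453). Ndufa7 read 8.21, 8.36 and 8.14 in young short, 8.80, 8.55 and 8.57 in young long and 8.38 and 8.58 in transplant long arrays. Its rise of 0.41 ± 0.11 in young long culture passed (adjusted p = 0.0387, limma), and the difference of 0.24 ± 0.12 in transplant long culture did not (adjusted p = 0.294). The young long calls were kept in 10 of 17 alternative analyses for Ndufa7 and in 11 of 17 for Ndufa2.

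**Figure D2:**
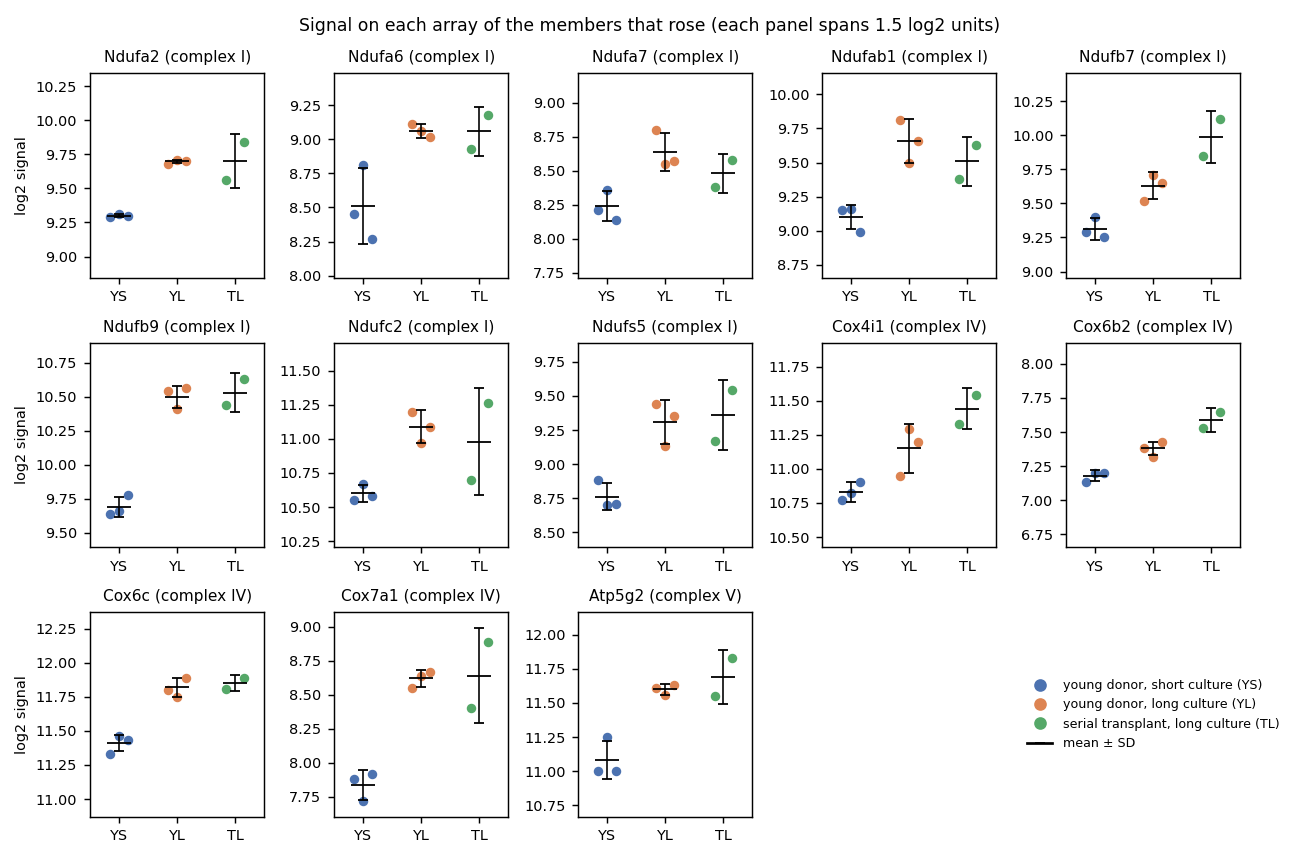
Points show the log2 signal of each array for the 13 members that rose in at least 1 comparison with young short culture, in young short (YS), young long (YL) and transplant long (TL) arrays; black marks are the mean ± SD of 3, 3 and 2 arrays, and every panel spans 1.5 log2 units. Ndufb9 and Cox7a1 differ most between the means of short and long culture, and Ndufb7, Cox4i1 and Cox6b2 are higher in TL than in YL on every array.

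The core subunits of complex I carry the path of the electrons. Ndufv1, which holds the flavin and binds NADH, read 10.67, 10.58 and 10.87 in young short, 11.23, 10.95 and 11.03 in young long and 11.02 and 11.08 in transplant long arrays. Short and long culture did not overlap, yet neither difference passed: 0.37 ± 0.11 (adjusted p = 0.0592, limma) and 0.34 ± 0.13 (adjusted p = 0.129). The other core differences, with young long first, were 0.38 and 0.23 for Ndufv2, 0.34 and 0.39 for Ndufs8, 0.25 and 0.15 for Ndufs1, 0.15 and 0.09 for Ndufs3 and -0.11 and -0.08 for Ndufs7. The core medians were 0.29 and 0.19, beside 0.17 and 0.22 for the accessory subunits.

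By place, 3 of 15 matrix-arm subunits rose in young long (20%) and 2 in transplant long culture (13.3%), with medians of 0.25 and 0.17. Of 18 membrane-arm subunits 3 rose in each (16.7%), with medians of 0.15 and 0.23. Of all probe sets 5.43% and 3.58% rose, and of the brighter ones 9.22% and 6.09%. The lowest differences in complex I were -0.32 for Ndufv3 in young long and -0.30 for Ndufb11 in transplant long culture, with adjusted p-values of 0.152 and 0.226 (limma). The 7 assembly factors had medians of 0.08 and 0.11 and none passed. The highest was Ndufaf2, a chaperone of late assembly, at 0.27 ± 0.11 and 0.33 ± 0.12 (adjusted p = 0.144 and 0.133, limma).

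Complex II, which is also the succinate dehydrogenase of the citric acid cycle, differed little. The flavoprotein Sdha read 11.41, 11.28 and 11.39 in young short, 11.00, 11.42 and 11.31 in young long and 11.35 and 11.50 in transplant long arrays, with overlapping groups. The iron-sulfur subunit Sdhb had the largest difference, 0.21 ± 0.10 in young long culture (adjusted p = 0.233, limma) and 0.10 ± 0.12 in transplant long culture. The membrane anchors differed by 0.08 and 0.08 (Sdhc) and 0.12 and 0.07 (Sdhd). None of the 4 passed in either comparison, and the medians were 0.10 and 0.07.

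None of the 8 complex III members passed either, with medians of 0.12 and 0.15. They ran in young long culture from -0.27 ± 0.12 for Uqcrb, a ubiquinone-binding subunit (adjusted p = 0.200, limma), to 0.31 ± 0.13 for Uqcrq (adjusted p = 0.165). Uqcrb read 10.92, 10.75 and 10.80 in young short, 10.28, 10.72 and 10.67 in young long and 10.70 and 10.74 in transplant long arrays. All long-culture arrays lay below the short-culture ones, the highest of them narrowly. The catalytic Rieske protein Uqcrfs1 differed by 0.07 and 0.00. The complex III gene Cyc1, which is not a member by name, rose by 0.45 and 0.51 (adjusted p = 0.0176 and 0.0175, limma).

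In complex IV, 2 of 19 members rose in young long (10.5%) and 4 in transplant long culture (21.1%), with medians of 0.11 and 0.16. Of all probe sets 5.43% and 3.58% rose, and of the brighter ones 9.22% and 6.09%. Several nuclear subunits of complex IV exist in a common form and in a form tied to a tissue or condition. The 2 kinds are given apart: 10 common and 9 other forms.

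Cox7a1 is the form of subunit 7a known from heart and skeletal muscle. It read 7.88, 7.72 and 7.92 in young short, 8.55, 8.64 and 8.67 in young long and 8.40 and 8.89 in transplant long arrays. Every long-culture array was higher, with both the lowest and the highest of them in the transplant long group. The rise was 0.78 ± 0.13 (1.72-fold; adjusted p = 0.00498, limma) and 0.80 ± 0.14 (1.75-fold; adjusted p = 0.00791). The common form Cox7a2 read 9.84, 9.60 and 9.70, then 9.99, 9.77 and 9.98, then 9.83 and 9.93, with overlap, and its differences of 0.20 ± 0.11 and 0.17 ± 0.12 did not pass. Cox7a2l, a relative that joins complexes III and IV into supercomplexes, differed by 0.29 ± 0.18 and 0.38 ± 0.20, and its transplant long arrays spread from 9.84 to 10.62.

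Subunit 6b showed the other form moving in the transplant long group. Cox6b2, known as the testis form, read 7.13, 7.20 and 7.20 in young short, 7.38, 7.32 and 7.43 in young long and 7.53 and 7.65 in transplant long arrays. The groups did not overlap. The difference passed for transplant long culture, 0.41 ± 0.10 (adjusted p = 0.0296, limma), in 9 of 17 alternative analyses as well, and was 0.20 ± 0.09 for young long culture (adjusted p = 0.187). Between the long cultures Cox6b2 differed by 0.21 ± 0.10 (adjusted p = 0.721, limma). The common Cox6b1 differed by 0.29 ± 0.14 and 0.20 ± 0.16 with overlapping arrays.

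Of the common forms, Cox6c and Cox4i1 rose. Cox6c, a small subunit that crosses the membrane, read 11.33, 11.46 and 11.43 in young short, 11.80, 11.75 and 11.89 in young long and 11.81 and 11.89 in transplant long arrays. It rose by 0.41 ± 0.09 (adjusted p = 0.0189, limma) and 0.45 ± 0.10 (adjusted p = 0.0235). Cox4i1, the subunit through which ATP and ADP regulate the enzyme, read 10.77, 10.82 and 10.90 in young short, 10.95, 11.29 and 11.20 in young long and 11.33 and 11.54 in transplant long arrays. Its groups did not overlap, and the difference passed for transplant long culture only, 0.61 ± 0.13 (1.52-fold; adjusted p = 0.0148, limma), beside 0.32 ± 0.11 (adjusted p = 0.0981) in young long culture.

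The remaining forms did not pass. Cox4i2, the form of subunit 4 known from lung and low oxygen, differed by -0.04 and 0.12, and Ndufa4l2, known to be induced by low oxygen, by -0.08 and -0.03, beside 0.22 and 0.16 for Ndufa4. The testis-associated Cox7b2 differed by 0.41 ± 0.18 and 0.46 ± 0.20 and the common Cox7b by -0.05 ± 0.18 and -0.17 ± 0.21. The testis form Cox8c differed by -0.02 and 0.23, the muscle form Cox8b by 0.06 and -0.04, and the common Cox8a by -0.16 and -0.20. Subunit 6a gave 0.11 and 0.01 for the common Cox6a1 and -0.12 and -0.23 for the muscle form Cox6a2. Neither muscle form beside Cox7a1 passed, and the probe sets of Cox6a2 and Cox8b both lay under the median signal.

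**Figure D3:**
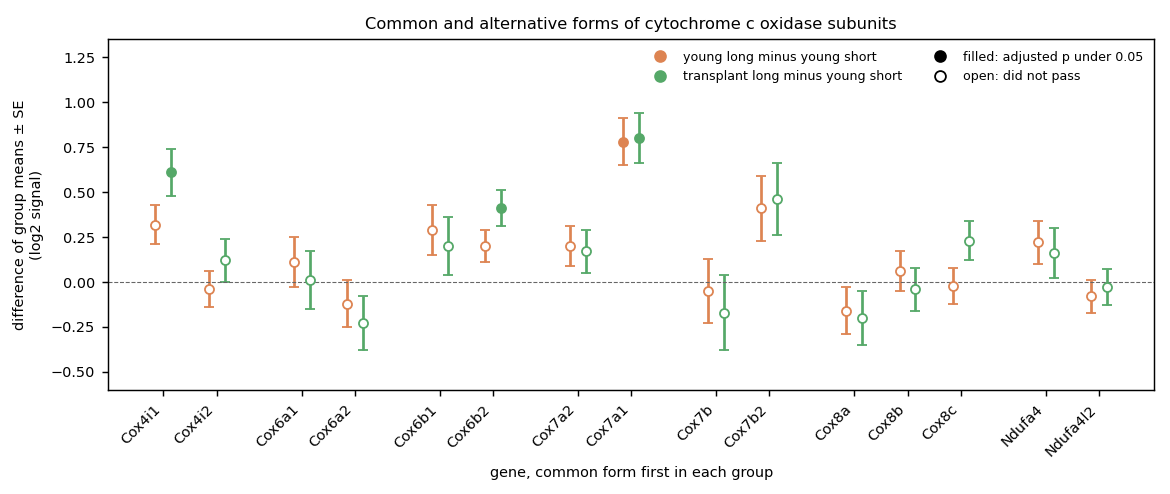
The vertical axis is the difference of group means ± SE in log2 signal against young short culture for young long (orange) and transplant long (green) arrays, with the common form of each complex IV subunit first and filled points for an adjusted p under 0.05. Cox7a1 is filled in both colours at 0.78 and 0.80, and Cox4i1 and Cox6b2 in green only.

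In complex V, 1 of 17 members rose in each comparison (5.88%), beside 5.43% and 3.58% of all probe sets. Of the probe sets above the median signal, 9.22% and 6.09% rose. The medians of complex V were the lowest of the 5 complexes, 0.06 and 0.03. The member that rose was Atp5g2, 1 of 3 genes for the c subunit, whose mature protein is the same from all of them. It read 11.00, 11.25 and 11.00 in young short, 11.61, 11.56 and 11.63 in young long and 11.55 and 11.83 in transplant long arrays, with no overlap between short and long culture. The rise was 0.52 ± 0.11 (1.43-fold; adjusted p = 0.0152, limma) and 0.60 ± 0.12 (1.52-fold; adjusted p = 0.0138). Its other 2 probe sets gave 0.52 and 0.45 in young long and 0.61 and 0.55 in transplant long culture, all past the threshold. Atp5g1 read 9.65, 9.82 and 9.65 in young short, 10.22, 9.94 and 9.88 in young long and 9.93 and 10.14 in transplant long arrays, also without overlap, but 0.30 ± 0.12 and 0.33 ± 0.13 did not pass (adjusted p = 0.128 and 0.173, limma). Atp5g3 differed by 0.18 ± 0.13 and 0.03 ± 0.14, with overlap.

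The F1 part, which holds the sites where ATP is made, lay mostly on the other side of 0. Of its 5 genes, Atp5a1, Atp5b, Atp5c1 and Atp5d had negative differences in both comparisons and Atp5e positive ones, with medians of -0.12 and -0.14, and none passed. The catalytic subunit Atp5b read 12.75, 12.58 and 12.61 in young short, 12.52, 12.49 and 12.57 in young long and 12.55 and 12.45 in transplant long arrays. Short and long culture narrowly did not overlap, and the differences were -0.12 ± 0.09 and -0.14 ± 0.11 (adjusted p = 0.478 and 0.504, limma). Atp5a1, its non-catalytic partner, differed by -0.11 and -0.17, and Atp5e by 0.31 ± 0.11 and 0.22 ± 0.13.

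The peripheral stalk and the membrane part were mixed. Atp5h, a subunit of the peripheral stalk, read 10.74, 10.87 and 10.59 in young short, 10.48, 10.36 and 10.49 in young long and 10.46 and 10.50 in transplant long arrays, all long-culture arrays lower. Its differences were -0.29 ± 0.10 (adjusted p = 0.0967, limma) and -0.25 ± 0.11 (adjusted p = 0.234). With quantile normalization of the deposited values Atp5h fell in young long culture, by 0.34 (adjusted p = 0.0454, limma). Atp5l of the membrane part read 9.38, 9.84 and 9.37 in young short, 10.22, 9.88 and 9.96 in young long and 9.58 and 10.05 in transplant long arrays. It differed by 0.49 ± 0.16 (adjusted p = 0.0760, limma) and 0.29 ± 0.18.

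Of the members, 17 had more than 1 probe set. Within each of the 17 the probe sets gave the same call in both comparisons with short culture, and the same sign for 15 members in young long and 17 in transplant long culture. The widest gap between probe sets of a member was 0.26, for Ndufa11 in young long culture. Some of these probe sets may read near-identical copies of a gene elsewhere in the genome, so the source of their signal is uncertain.

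The 2 long-culture groups were then compared with each other, which asks what serial transplantation and the higher labelled age go with when culture is long. No member passed, and no probe set of the 28944 did (0%), by limma with Benjamini-Hochberg adjustment. At an unadjusted p under 0.05 there were 5 of 89 members and 2079 of 28944 probe sets (7.18%). A fit with array weights called 0 members and 22 probe sets. The members' median difference was -0.01, beside 0.02 over all probe sets and -0.01 over those above the median signal. Of the 89 members 41 (46.1%) were positive, beside 54.6% of all probe sets and 47.1% of the brighter ones. Transplant long arrays lay above all young long arrays for 9 members (10.1%, beside 14.9% of all probe sets) and below them for 2, Ndufa12 and Ndufb11 (beside 10.8%).

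The 5 members with the smallest p were all higher in the transplant long arrays. Ndufa13, a membrane-arm subunit of complex I also known as GRIM-19 for its part in cell death, read 8.82, 9.14 and 9.05 in young long and 9.36 and 9.52 in transplant long arrays, beside 9.07, 8.90 and 9.17 in young short. Its young long arrays overlapped short culture and its transplant long arrays lay above both. The difference between the long cultures was 0.44 ± 0.13 (adjusted p = 0.463, limma). Next were Ndufb7 with 0.36 ± 0.12 (adjusted p = 0.536), Cox4i1 with 0.29 ± 0.13 (0.682), Ndufs6 with 0.37 ± 0.16 (0.686) and Cox8c with 0.24 ± 0.11 (0.691).

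None of the other members passed between the long cultures either. Their differences ran from -0.26 for Ndufb8 and Ndufa12 to 0.21 for Cox6b2. Complex II differed by 0.18 (Sdha), -0.10 (Sdhb), 0.01 (Sdhc) and -0.06 (Sdhd). The core subunits of complex I ran from -0.15 for Ndufv2 to 0.05 for Ndufs8. Of the members that rose from short culture, Ndufb9 differed between the long cultures by 0.04 ± 0.11, Cox7a1 by 0.02 ± 0.14, Atp5g2 by 0.09 ± 0.12 and Ndufab1 by -0.15 ± 0.13, beside the larger values of Ndufb7 and Cox4i1 above. These values do not show that the groups are alike, since 3 arrays against 2 give wide intervals.

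On each array, the median deviation of the 89 members from their 8-array means was -0.07, -0.00 and -0.18 in young short, 0.12, -0.00 and 0.06 in young long, and -0.04 and 0.15 in transplant long arrays. The ranges of the groups met or overlapped: transplant long replicate 1 lay within the young short range and young short replicate 2 equalled young long replicate 2 at this rounding. For the 13 members that rose in at least 1 comparison the deviations, given as a description of genes chosen by their difference, were -0.33, -0.21 and -0.34, then 0.22, 0.11 and 0.21, then 0.08 and 0.38. Complex I spanned -0.20 to -0.05 in the young short arrays and -0.00 to 0.14 in the young long arrays, with -0.05 and 0.16 in the transplant long arrays, so that transplant long replicate 1 met the short-culture range. Complex V spanned -0.06 to 0.03 there and -0.03 to 0.11 in young long arrays.

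Markers of other cells and of dividing cells moved between the same groups. Of 15 fibroblast markers 13 fell in young long culture (median -0.83) and 12 in transplant long culture (median -1.13), and none rose. Of 15 genes of the G2 and M phases 8 rose in young long (median 0.48) and 3 in transplant long culture (median 0.35), and none fell. Of the 14 germ cell markers 3 rose and 3 fell, and 1 rose and 3 fell. Of 7 Sertoli cell markers 1 rose and 0 fell, and 1 rose and 1 fell, and in both comparisons 2 of 4 Leydig cell markers and 2 of 6 macrophage markers fell and none rose. The part of these markers' cells in the members' changes was not tested.

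**Figure D4:**
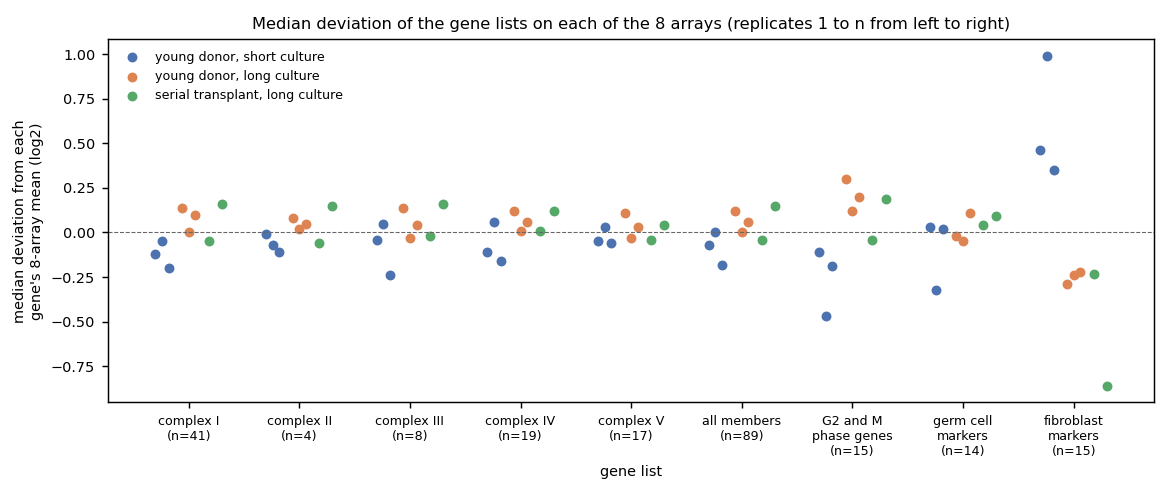
Each point is 1 array; the vertical axis is the median, over the genes of a list, of the deviation from each gene's mean over the 8 arrays in log2 signal, and the horizontal axis gives the lists with their number of genes. The member medians lie within -0.18 and 0.15, whereas the fibroblast markers run from 0.99 in young short replicate 2 to -0.86 in transplant long replicate 2.

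Genes around the chain were read from lists chosen by function. Of 4 measured genes for cytochromes c and c1 and the ATP synthase inhibitor, 1 rose in young long and 2 in transplant long culture. Cyc1, the cytochrome c1 of complex III, read 10.80, 10.66 and 10.86 in young short, 11.19, 11.22 and 11.25 in young long and 11.18 and 11.39 in transplant long arrays. It rose by 0.45 ± 0.10 (adjusted p = 0.0176, limma) and 0.51 ± 0.11 (adjusted p = 0.0175), with no overlap. Cyct, the cytochrome c of testis, rose in transplant long culture by 0.70 ± 0.17 (adjusted p = 0.0296, limma), beside 0.48 ± 0.16 (adjusted p = 0.0726) in young long culture. The 13 genes of the mitochondrial genome are not analysed here. Of 35 further assembly factors 2 rose in young long culture, Nubpl, which delivers iron-sulfur clusters to complex I, by 0.74 ± 0.16 and Tmem70, needed for complex V and complex I, by 0.45 ± 0.11 (adjusted p = 0.0176 and 0.0211, limma). None of the 35 passed in transplant long culture, where these 2 differed by 0.52 and 0.26. The Nubpl means, 6.12 in young short, 6.86 in young long and 6.64 in transplant long arrays, lay under the median signal of 6.94. Its signal can thus be background.

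Of 18 regulators of mitochondrial biogenesis, 1 rose and 2 fell in young long culture, and 2 fell in transplant long culture. Ppargc1a, the coactivator PGC-1alpha that drives mitochondrial biogenesis, read 7.44, 8.58 and 7.23 in young short, 6.16, 6.13 and 5.87 in young long and 6.24 and 5.61 in transplant long arrays. It fell by 1.70 ± 0.29 (adjusted p = 0.00595, limma) in young long culture and fell by 1.82 ± 0.33 (adjusted p = 0.00789), to means under the median signal of 6.94, and was highest in young short replicate 2, the array with the highest fibroblast markers. Hif1a, the oxygen-regulated factor that favours glycolysis, read 10.69, 11.32 and 10.54 in young short, 10.24, 10.17 and 10.07 in young long and 10.20 and 9.81 in transplant long arrays, and was highest on that same array. It fell by 0.69 ± 0.18 (adjusted p = 0.0346, limma) and fell by 0.84 ± 0.20 (adjusted p = 0.0273). Tfb1m, which methylates mitochondrial ribosomal RNA, rose in young long culture by 0.56 ± 0.14 (adjusted p = 0.0279, limma), beside 0.45 ± 0.16 in transplant long culture (adjusted p = 0.116). The median over the 18 was 0.15 and 0.16.

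Neighbouring mitochondrial functions were mixed. Of 16 measured genes of the citric acid cycle and pyruvate dehydrogenase only Fh1, fumarate hydratase, rose, in young long culture by 0.39 ± 0.10 (adjusted p = 0.0359, limma), and the medians were 0.00 and -0.12. Of 19 other mitochondrial membrane proteins, Tomm22, a receptor of the import channel, rose in both, by 0.72 ± 0.12 (adjusted p = 0.00518, limma) and 0.61 ± 0.13 (adjusted p = 0.0177). In transplant long culture Vdac3 and Tomm20 also rose, by 0.50 ± 0.12 and 0.47 ± 0.11, while Vdac1, the main outer-membrane channel, fell by 0.60 ± 0.16 and Slc25a4, an exchanger of ADP and ATP, fell by 0.69 ± 0.17 (limma). The medians of these 19 were 0.10 and 0.06.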

How the data were processed

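Total RNA of 8 samples was labelled with biotin and hybridised to Affymetrix arrays, according to the labels. Values are log2 signals as deposited, 1 for each probe set and array; the submitters' processing notes name Partek 6.4 and RMA. RMA subtracts background, normalizes between arrays and combines the probes of a probe set. The sources used here do not give its settings. The log2 scale follows from the deposited range, 2.16 to 14.81. No detection calls come with RMA, so a dim signal can be background.

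The table held 35557 probe sets. Its opening run of 6613 consecutive identifiers was dropped as controls, which the numbering alone supports. Of the remaining 28944, the platform annotation gave 21789 a single gene symbol, 1621 several and 5534 none. Each of the 89 members was found in RefSeq (GRCm38.p6) through its gene number.

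Groups were compared with limma 3.58.1 (R 4.3.3) in 1 fit of all 8 arrays with a coefficient per group and moderated variances (5 residual and 6.28 prior degrees of freedom). Tests were two-sided. Benjamini-Hochberg adjustment ran over the 28944 probe sets, the threshold was 0.05, and no minimum fold was asked. The fit was also run on simulated data, with a shift in the young long group that was larger than any member's change. That run does not speak of smaller changes or of the transplant long group. Errors of differences are limma's standard errors and those of means are SD. Lists were described by counts and medians without a test.

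Members, gene lists and tests were chosen with earlier results of these data known. Named are members past the test, or the 5 smallest p where fewer than 5 passed, complex II, the complex I core, paired forms of complex IV subunits, and up to 4 genes of each list. Uqcrb, Uqcrq, Uqcrfs1, Ndufv3, Ndufb8, Ndufb11, Ndufaf2, Ndufaf3, Ndufa11, Ndufa12 and the complex V members other than Atp5g2 were chosen after their values were seen. Alternatives were an intensity trend, array weights, a fit of only the groups compared, controls kept, dim probe sets dropped, quantile normalization, median centring, the replicate number as a block, a member's probe sets averaged, subunits only, and leaving out each array.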

Additional observations from a re-analysis of the deposited data

How the results depend on the processing

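The count of members that rose between young short and young long culture, 10, became 23 with array weights and 5 with the control probe sets kept, and ranged from 2 to 10 over the 8 fits without 1 array. The count between young short and transplant long culture, also 10, became 4 with only the 2 groups compared, 6 with the replicate number as a block and 5 with the control probe sets kept, and ranged from 0 to 9 without 1 array; the 0 came without transplant long replicate 2. Quantile normalization gave 9 that rose and 1 that fell (Atp5h) in young long culture. Same-numbered arrays of the young groups had deviations correlated at 0.081, 0.176 and 0.102, and those of the transplant group correlated negatively, so the numbers were not taken as pairs; the block gave 8 in young long culture and 0 between the long cultures. No member passed between the long cultures in any alternative. The cause of these shifts was not tested. Fits without 1 array hold fewer arrays, and the fit with controls kept holds more probe sets.

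The members' median change ranged from 0.08 to 0.21 in young long, from 0.05 to 0.23 in transplant long and from -0.11 to 0.08 between the long cultures; without transplant long replicate 2 it was 0.05 and -0.11, and over the single arrays left out the range reached these ends. Of the members' calls, Ndufb9 and Cox7a1 were kept in all 17 alternatives in young long culture; in transplant long culture they were lost only without transplant long replicate 2, with adjusted p-values of 0.0692 and 0.126 by limma. Of 1637 alternative values for named genes, 1542 kept direction and side of the threshold, 83 lost a call, 12 gained one and 0 reversed a call. Few arrays, and signal near background for 6 members, limit what can be seen.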
